A study of Mus musculus with 6 samples.

Results

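The NMDA receptor subunit genes are the 7 genes Grin1, Grin2a, Grin2b, Grin2c, Grin2d, Grin3a and Grin3b. They were taken by symbol from a table of read counts for 24060 genes, in which all 7 were found, and all 7 were among the 16449 genes with enough reads to be tested. The counts come from RNA sequencing of mouse retinal ganglion cells (RGCs), the neurons whose axons form the optic nerve. RGCs of C57BL/6 mice were taken from embryos at embryonic day 18 (E18, 3 samples, replicates 1, 3 and 4) and from pups at postnatal day 5 (P5, 3 samples, replicates 6, 8 and 9), ages that lie on either side of the loss of rapid axon growth. The labels give no treatment, transgene or mutation at either age. At both ages retinas were digested with papain, macrophages were removed with antibodies, and RGCs were held on dishes coated with antibodies against CD90, the product of Thy1. The samples are bulk preparations, in which fewer cells of a type and less RNA per cell cannot be told apart. The labels do not say whether replicates came from separate animals or litters, so p-values measure only the spread between these samples, which may be technical. In the table, E18 replicate 1 is named with the numbers 2 and 5 as well, without a statement on pooling, and the labels name polyA RNA where the protocol names removal of ribosomal RNA.

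NMDA receptors are cation channels of excitatory synapses that open when glutamate and a co-agonist, glycine or D-serine, are bound and depolarization clears magnesium from the pore. Channels contain the GluN1 subunit, encoded by Grin1, which binds the co-agonist, together with glutamate-binding GluN2 subunits (Grin2a to Grin2d) or glycine-binding GluN3 subunits (Grin3a and Grin3b). In many brain regions GluN2B predominates early and GluN2A is added as synapses mature, and RGCs receive glutamate from bipolar cells partly through these receptors.

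The 7 genes encode related proteins of unequal likeness. Over aligned residues of the whole translations, Grin1 was 27.9% to 32.2% identical to the other members, Grin2a was 56.6% identical to Grin2b, Grin2c was 56.6% identical to Grin2d, and Grin3a was 55.9% identical to Grin3b.

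Library sizes on genes were 81213639 to 114512853 reads. Replicates were not alike within sampling noise, with a chi-square of 30.5 to 141 per degree of freedom over genes. Over genes as a whole the spread between samples thus exceeded the noise of depth, which need not hold for each gene with few reads. Levels are given as CPM, read counts scaled to a common library size after TMM normalization. Log2 fold changes set E18 over P5, so a negative value is a lower level at E18. The summed level of 15 RGC markers was 10700, 10900 and 12200 CPM at E18 and 11500, 10600 and 11700 CPM at P5, overlapping between the ages. Markers of other cell types were also present. Over 14 retinal progenitor and dividing-cell markers the sum was 522, 235 and 105 CPM at E18 against 70.8 to 96.2 CPM at P5, and 9 of the 14 passed the test as higher at E18. Amacrine cell markers summed to 871 to 959 CPM at E18 and 1160 to 1510 CPM at P5, with 1 of 10 tested lower and 5 higher at E18. Endothelial and pericyte markers summed to 72.8, 64.8 and 16.5 CPM at E18 and 14.7 to 17.9 CPM at P5. Bipolar markers summed to 82.2, 56.8 and 56.2 CPM at E18 and 105, 84.4 and 116 CPM at P5, without overlap. Prkca made up most of these P5 sums, at 79.0, 64.8 and 92.2 CPM, and was at 40.7, 40.7 and 45.5 CPM at E18. Of the 6 bipolar markers tested, 3 were called lower and 2 higher at E18. Oligodendrocyte markers summed to 90.8 to 91.7 CPM at E18 and 54.1 to 73.8 CPM at P5, and microglia markers to 4.66 to 5.18 and 3.29 to 3.65 CPM, also without overlap. Over both ages Müller glia and astrocyte markers summed to 477 to 604 CPM, photoreceptor markers to 4.27 to 12.9 CPM and red blood cell markers to at most 1.82 CPM, with Hba-a1, Hbb-bs and Hbb-bt at 0 in every sample. The part of these cells in the levels of the subunit genes was not tested.

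Of the subunit genes, 6 were lower at E18 than at P5 and Grin3b was higher. All 7 passed edgeR's quasi-likelihood test at a Benjamini-Hochberg adjusted p of 0.05, and in all 7 the values of the ages did not overlap. Of all 16449 genes tested, 43.4% were called, 22.5% as lower and 20.8% as higher at E18, and 56.1% did not overlap between the ages, 28.5% with E18 lower and 27.6% with E18 higher. The fold from E18 to P5 ranged among the 6 rising genes from 1.55 for Grin2b to 4.30 for Grin2d. Calls at least 2-fold lower at E18 were made for 4 members, Grin1, Grin2a, Grin2c and Grin2d, and for 9.54% of all genes tested. Without P5 replicate 9 only 1 member, Grin2d, was called at that size. The median log2 fold change of all genes tested was 0.00473.

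**Figure D1:**
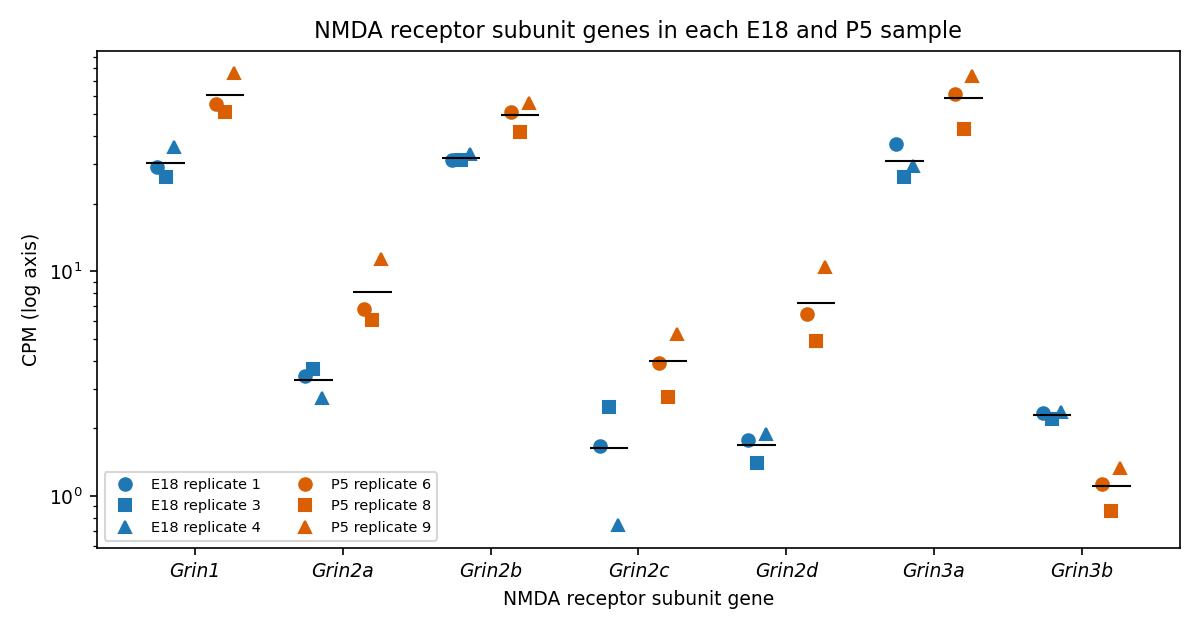
Level of each NMDA receptor subunit gene in CPM (logarithmic vertical axis) in the 3 E18 samples (blue) and the 3 P5 samples (orange), with a line at the mean of each age. The P5 points lie above the E18 points for Grin1, Grin2a, Grin2b, Grin2c, Grin2d and Grin3a and below them for Grin3b.

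Grin1 encodes the subunit that every NMDA receptor contains. The gene (ENSMUSG00000026959.13, NM_008169) lies on the minus strand of mm10 at chr2:25291181-25319187. Its level was 29.0, 26.2 and 35.7 CPM in E18 replicates 1, 3 and 4 and 55.6, 51.4 and 76.1 CPM in P5 replicates 6, 8 and 9. All P5 samples were above all E18 samples, with replicate 9 the highest. The means were 30.3 ± 4.89 CPM at E18 and 60.99 ± 13.2 CPM at P5 (SD, n = 3 each), and the log2 fold change was -1.01 (SE 0.172, 95% interval -1.40 to -0.62, edgeR adjusted p = 0.00239). An antisense gene, Grin1os, shares 1307 bases, or 13.5%, of the exons of Grin1 on the opposite strand. Grin1os was counted at 1.42, 1.54 and 1.78 CPM at E18 and 2.98, 2.67 and 2.91 CPM at P5 and was also lower at E18 (log2 fold change -0.85, edgeR adjusted p = 0.00920). No source states whether the counting used strand, and without strand the reads of this overlap cannot be told apart.

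Grin2b, the GluN2 gene of early synapses, had the smallest fold change of the 7 genes. The gene (ENSMUSG00000030209.14, NM_008171) lies on the minus strand at chr6:135713233-136173511. Its level was 31.4, 31.4 and 33.3 CPM at E18 and 51.1, 41.8 and 56.1 CPM at P5. The E18 samples lay close together and the P5 samples were all higher. The means were 32.1 ± 1.12 and 49.7 ± 7.28 CPM, and the log2 fold change was -0.63 (SE 0.121, interval -0.91 to -0.36, edgeR adjusted p = 0.00398).

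Grin2a, whose subunit joins receptors as synapses mature, was lower at E18 in every sample. The gene (ENSMUSG00000059003.12, NM_008170) lies on the minus strand at chr16:9567898-9995560. Its level was 3.42, 3.68 and 2.73 CPM at E18 and 6.80, 6.09 and 11.4 CPM at P5. Replicate 9 stood above the other P5 samples, which were still above all E18 samples. The means were 3.28 ± 0.494 and 8.09 ± 2.87 CPM, a 2.47-fold rise with a log2 fold change of -1.30 (SE 0.258, interval -1.89 to -0.72, edgeR adjusted p = 0.00465).

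Grin2d, a GluN2 gene known from early development and interneurons, had the largest fold change of the 7 genes. The gene (ENSMUSG00000002771.12, NM_008172) lies on the minus strand at chr7:45831883-45878378. Its level was 1.77, 1.40 and 1.88 CPM at E18 and 6.43, 4.88 and 10.4 CPM at P5, with no overlap and replicate 9 again the highest. The means were 1.68 ± 0.251 and 7.23 ± 2.85 CPM, a 4.30-fold rise with a log2 fold change of -2.11 (SE 0.294, interval -2.77 to -1.44, edgeR adjusted p = 0.00104). The antisense gene Gm45441 shares 643 bases, or 9.66%, of its exons.

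Grin2c, best known from the cerebellum, was the least certain of the 7 changes. The gene (ENSMUSG00000020734.13, NM_010350) lies on the minus strand at chr11:115249169-115267243. Its level was 1.66, 2.497 and 0.740 CPM at E18, from 138, 280 and 67 reads, and 3.91, 2.75 and 5.23 CPM at P5, from 347, 271 and 492 reads. The E18 samples spread widely, and the highest of them, replicate 3, lay just under P5 replicate 8. The means were 1.63 ± 0.879 and 3.97 ± 1.24 CPM, and the log2 fold change was -1.28 (SE 0.417, interval -2.22 to -0.33, edgeR adjusted p = 0.0361). The call was kept in 2 of the 6 fits that left out a sample. Without E18 replicate 1 the edgeR adjusted p was 0.0776, without E18 replicate 4 it was 0.0574, without P5 replicate 6 it was 0.0911 and without P5 replicate 9 it was 0.118. Amacrine cell markers were set beside Grin2c after their values were seen. Of the 10 tested, 8 had its order over the E18 samples, with replicate 3 the highest and replicate 4 the lowest. This order was also found in 2 of 10 photoreceptor and 2 of 10 Müller glia and astrocyte markers. It was found in 1 of 14 progenitor and dividing-cell, 1 of 8 microglia, 1 of 7 oligodendrocyte and 1 of 1 red blood cell markers. RGC (0 of 15), bipolar (0 of 6) and endothelial and pericyte (0 of 7) markers had none. The share of all genes tested with this order was not computed. The summed amacrine markers, at 959, 958 and 871 CPM in E18 replicates 1, 3 and 4, did not have replicate 3 as the highest and were higher at P5. Of the 10 tested, 5 were called higher and 1 lower at E18. The 8 with the order of Grin2c include Tfap2b, a transcription factor of amacrine cells, and Chat, the enzyme that makes acetylcholine in starburst amacrine cells. Tfap2b was at 47.5, 119 and 1.62 CPM and Chat at 5.59, 10.9 and 0.287 CPM in E18 replicates 1, 3 and 4, against 1.02 to 1.55 and 0.237 to 0.797 CPM at P5. Their part in the level of Grin2c was not tested.

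Grin3a and Grin3b, the glycine-binding GluN3 genes, changed in opposite directions. Grin3a (ENSMUSG00000039579.15, NM_001033351), on the minus strand at chr4:49661611-49845744, was at 37.0, 26.2 and 29.5 CPM at E18 and 61.4, 42.9 and 73.7 CPM at P5. The lowest P5 sample, replicate 8, was above the highest E18 sample. The means were 30.9 ± 5.58 and 59.3 ± 15.5 CPM, and the log2 fold change was -0.94 (SE 0.202, interval -1.40 to -0.48, edgeR adjusted p = 0.00650).

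Grin3b (ENSMUSG00000035745.9, NM_130455), on the plus strand at chr10:79970715-79977190, was at 2.34, 2.19 and 2.35 CPM at E18 and 1.13, 0.853 and 1.33 CPM at P5. The E18 samples were nearly alike and all above the P5 samples. The means were 2.30 ± 0.0878 and 1.10 ± 0.239 CPM, and the log2 fold change was 1.06 (SE 0.235, interval 0.52 to 1.59, edgeR adjusted p = 0.00754). Tmem259, a gene on the opposite strand, shares 1059 bases, or 32.1%, of the exons of Grin3b and was counted at 54.0, 56.1 and 60.7 CPM at E18 and 46.5, 65.3 and 58.4 CPM at P5. Its values overlapped between the ages (log2 fold change 0.01, edgeR adjusted p = 0.979). How reads of the shared bases were assigned is not stated, so the level of Grin3b is uncertain.

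**Figure D2:**
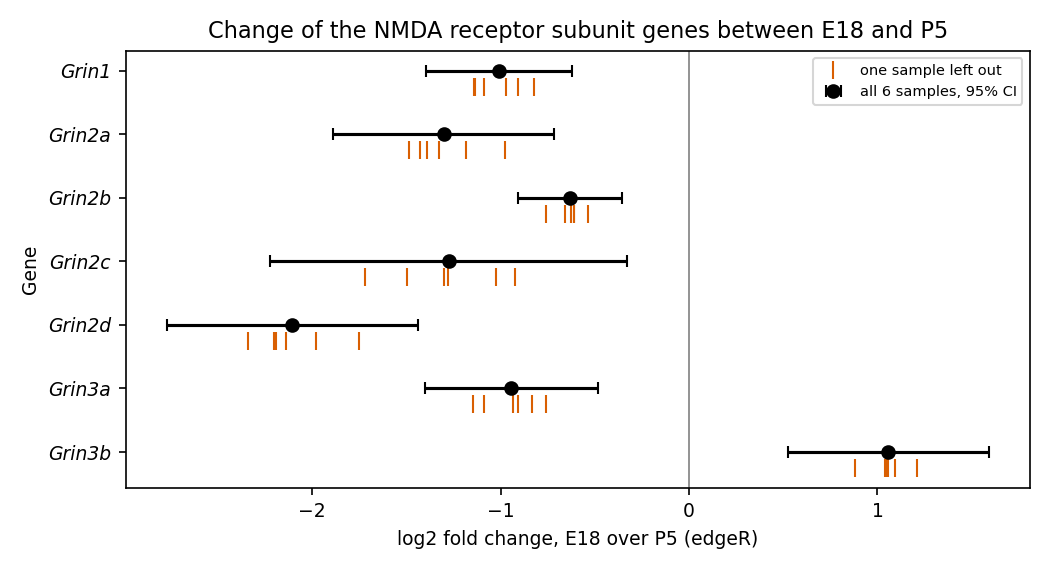
Log2 fold change of E18 over P5 for each subunit gene from edgeR (horizontal axis), with its 95% interval over all 6 samples (black) and the values of the 6 fits that each left out a sample (orange ticks). No interval crosses 0, and no fit with a sample left out changed the direction, with Grin2d farthest to the left at -2.11 and Grin3b alone on the right at 1.06.

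The P5 samples kept the same order in all 7 genes. Replicate 9 was the highest P5 sample and replicate 8 the lowest in 7 of 7, including Grin3b, which was lower at P5. At E18 the highest sample was replicate 4 in 4 genes, replicate 3 in 2 and replicate 1 in 1. Genes outside the family also had this P5 order, and their part in it was not tested. The share of all genes tested with this order was not computed, so it is not shown to be particular to the family. Summed RGC markers were at 11500, 10600 and 11700 CPM in P5 replicates 6, 8 and 9, and summed amacrine markers at 1390, 1160 and 1510 CPM. Summed bipolar markers, which at P5 were mostly Prkca, were at 105, 84.4 and 116 CPM. In each of these sums the same samples were highest and lowest, but single markers within them did not all have this order. Of the amacrine markers, Slc6a9 had it, at 7.69, 7.67 and 9.42 CPM, while Tfap2a, Tfap2b, Chat and Th did not. Each of these was a small part of the amacrine sum. The summed progenitor, Müller glia and astrocyte, oligodendrocyte, and endothelial and pericyte markers instead had replicate 8 the highest and replicate 9 the lowest. Thy1, the antigen used for purification, was at 212, 217 and 312 CPM at E18 and 500, 469 and 690 CPM at P5. Slc17a6, the vesicular glutamate transporter of RGCs, was at 256, 275 and 316 CPM at E18 and 762, 531 and 939 CPM at P5. Rbpms, an RNA-binding protein that marks RGCs, was at 283, 276 and 320 CPM at E18 and 329, 326 and 291 CPM at P5. Its ages overlapped, and replicate 9 was the lowest at P5. The RGC markers Pou4f1 and Pou4f2 had replicate 8 the highest and replicate 9 the lowest. They were at 536, 712 and 483 CPM and at 221, 255 and 184 CPM in P5 replicates 6, 8 and 9. Sncg, also an RGC marker, was at 691, 628 and 673 CPM, with replicate 8 the lowest. RGC markers thus did not share 1 order at P5.

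Levels of different genes were compared only per length, as CPM per kb of merged exons. Grin1 was the highest member at both ages, at 3.13 CPM per kb at E18 and 6.29 ± 1.36 at P5, followed by Grin3a at 2.52 and 4.83 ± 1.26. The samples of Grin1 and Grin3a overlapped at both ages. Grin2b came next, at 1.29 CPM per kb at E18 and 2.0 ± 0.293 at P5, and did not overlap with the genes on either side of it. At E18 the order went on with Grin3b at 0.696, Grin2c at 0.324, Grin2d at 0.253 and Grin2a at 0.183 CPM per kb, where only Grin2c and Grin2d overlapped among these neighbours. At P5 it went on with Grin2d at 1.09 ± 0.428, Grin2c at 0.787 ± 0.246, Grin2a at 0.451 ± 0.160 and Grin3b at 0.335 ± 0.0724 CPM per kb, and each of these overlapped with the next. Grin3b thus moved from the fourth place at E18 to the last at P5.

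The order depends on the length used, since the annotated exons of Grin2a and Grin2b are far longer than the transcripts matched to the table. With the RefSeq-matched transcripts, of 4395 bases for Grin2a and 7484 for Grin2b in place of 17933 and 24842 bases of merged exons, Grin2b followed Grin1 at E18 at 4.28 ± 0.149 CPM per kb and Grin3a came next at 4.16 ± 0.751. At P5 Grin3a followed Grin1 at 7.99 ± 2.09 and Grin2b came next at 6.64 ± 0.973 CPM per kb, and Grin2a moved up to the fourth place at both ages, at 0.746 ± 0.112 and 1.84 ± 0.652 CPM per kb. With these lengths the samples of Grin2b and Grin3a overlapped at both ages. Those of Grin2a overlapped with the gene next below it, Grin3b at E18 and Grin2d at P5. Grin1 stayed the highest at both ages under each of the 4 lengths tried.

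The make-up of the GluN2 genes was compared as the share of each in their summed level per kb, which does not depend on the library size. Grin2b took a smaller share at P5 and Grin2d a larger one. With merged exons Grin2b held 61.6%, 58.1% and 69.8% at E18 and 49.2%, 51.0% and 41.1% at P5, and its mean share was 16.1 percentage points higher at E18 (63.2% ± 5.99 against 47.1% ± 5.24). Grin2d held 13.0%, 9.66% and 14.7% at E18 and 23.1%, 22.2% and 28.4% at P5, for means of 12.4% ± 2.54 and 24.6% ± 3.36. The ages did not overlap in either gene, and each had an exact two-sided permutation p = 0.1, the smallest that 3 samples against 3 allow, and 0.2 adjusted over the 4 shares.

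Grin2a held 8.89% ± 0.847 at E18 and 10.3% ± 1.23 at P5 (exact permutation p = 0.3, adjusted p = 0.4), and the ages overlapped. With the RefSeq-matched transcripts its shares were 13.8%, 14.4% and 11.1% at E18 and 14.9%, 16.5% and 19.8% at P5, without overlap. Grin2c held 15.5% ± 7.59 and 18% ± 1.27 (exact permutation p = 0.7, adjusted p = 0.7), and its E18 samples ranged from 7.64% to 22.8%. The larger share of Grin2b at E18 and of Grin2d at P5 held without overlap under each of the 4 lengths, with differences for Grin2b of 10.9 to 16.5 points. The share of Grin2d depended on the length, at 5.48% and 12.2% with RefSeq-matched transcripts and 4.81% and 11.2% with coding bases, and its difference, E18 minus P5, ranged from -13.2 to -6.37 points.

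**Figure D3:**
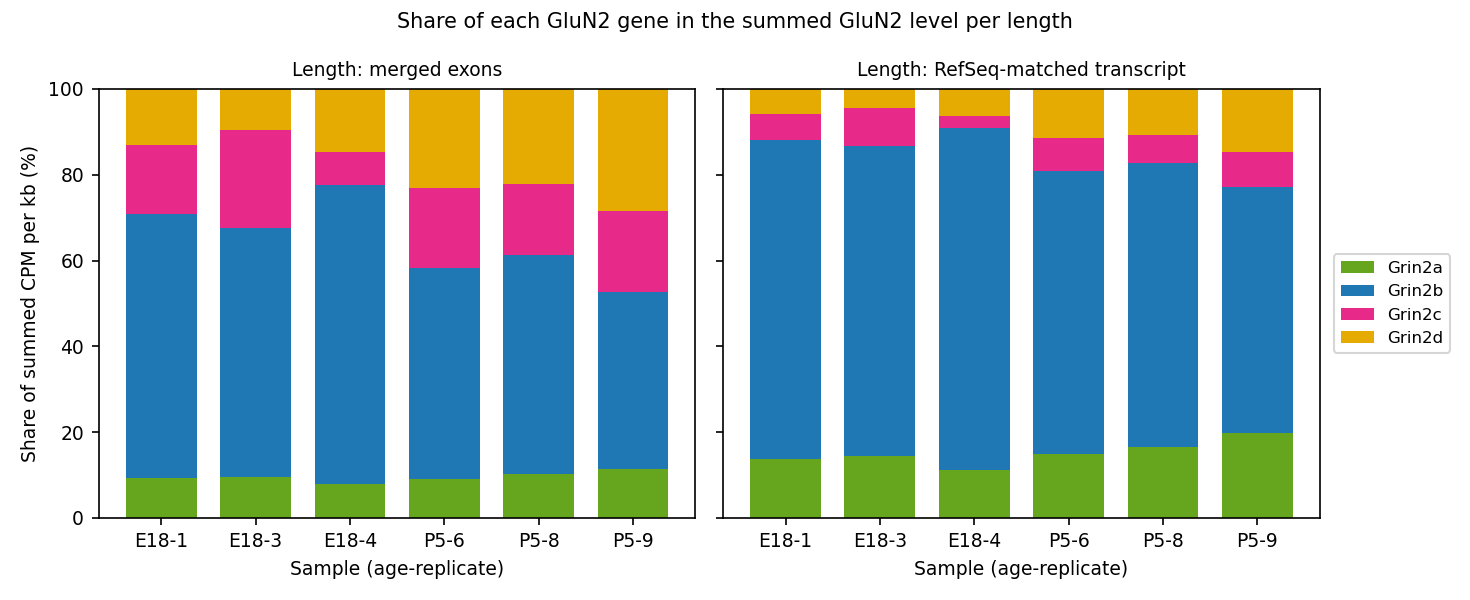
Share of Grin2a, Grin2b, Grin2c and Grin2d in their summed CPM per kb (vertical axis, percent) in each sample, with merged exons as length on the left and the RefSeq-matched transcript on the right. The blue Grin2b block is smaller in all 3 P5 samples than in any E18 sample and the yellow Grin2d block is larger, under both lengths.

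Ratios of read counts within a sample compared each member with Grin1 and Grin2a with Grin2b, as log2 ratios with 0.5 reads added to each count. The ages did not overlap for 4 of the 7 ratios, which each had an exact two-sided permutation p = 0.1 and an adjusted p = 0.175 over the 7 ratios. The share of other gene pairs without overlap was not computed. Among the levels of all single genes tested, 56.1% did not overlap, so the count of 4 is not shown to be particular to the family. Grin2b to Grin1 was 0.09 ± 0.18 at E18 and -0.29 ± 0.16 at P5. Grin2d to Grin1 was -4.17 ± 0.12 and -3.13 ± 0.26. Grin3b to Grin1, the widest shift, was -3.71 ± 0.19 and -5.78 ± 0.15. The ratio of Grin2a to Grin2b, often used to follow synaptic maturation, was -3.20, -3.09 and -3.61 at E18 and -2.91, -2.78 and -2.30 at P5. Every P5 sample thus had more Grin2a reads for each Grin2b read than every E18 sample. Overlap remained for Grin2a to Grin1, with a difference of -0.26 (exact permutation p = 0.4, adjusted p = 0.56) that was -0.007 without E18 replicate 4 and -0.446 without E18 replicate 3. For Grin2c to Grin1 the difference was -0.40, and for Grin3a to Grin1 it was 0.08 (exact permutation p = 0.8, adjusted p = 0.8 for each). The difference in Grin3a to Grin1 changed sign without E18 replicate 1 (-0.09) and without P5 replicate 8 (-0.03), and that in Grin2c to Grin1 without E18 replicate 4 (0.21).

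**Figure D4:**
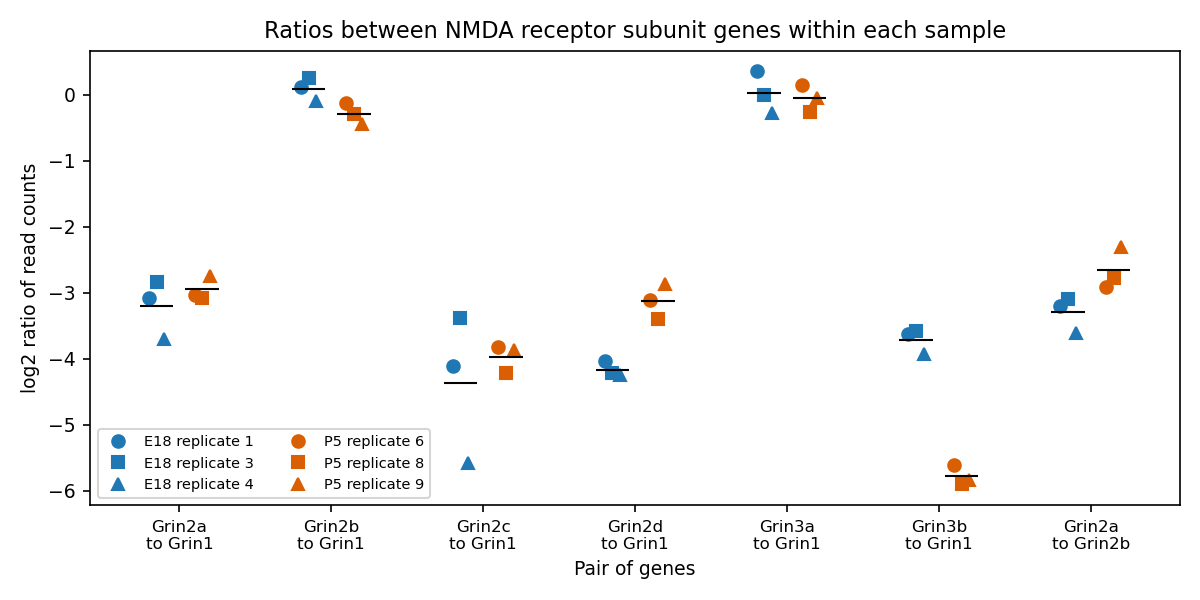
Log2 ratio of read counts for 7 pairs of subunit genes (vertical axis) in the 3 E18 samples (blue) and 3 P5 samples (orange), with a line at the mean of each age. Grin2b to Grin1 and Grin3b to Grin1 are higher in all E18 samples, Grin2d to Grin1 and Grin2a to Grin2b are higher in all P5 samples, and the other pairs overlap.

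The genes whose levels followed each member most closely were found by the root mean square difference of centred log2 CPM over the 6 samples. The search covered 9725 genes whose mean level reached 10 CPM. Syngr1, a synaptic vesicle protein, was nearest to Grin1 with a difference of 0.0358, followed by Atp2b3, a calcium pump of the plasma membrane, at 0.0428. St8sia3, a sialyltransferase, at 0.0274 and Smyd2 at 0.0310 were nearest to Grin2b. Frmpd1 lay at 0.129 from Grin2a. Grin2d was nearest to Nceh1 at 0.0933 and to Asic2, an acid-sensing channel, at 0.0980. Grin3a was nearest to Gm7120 at 0.115 and Wscd1 at 0.126, and Grin2c to Scg2, a secretory granule protein, at 0.135 and Tnr, an extracellular matrix protein, at 0.204. Grin3b was nearest to the glycolytic enzyme Eno1 at 0.0550 and to the cytokine Mif at 0.113.

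Sequence before the start site was compared for the 4 members with a RefSeq promoter window (GRCm38.p6), which holds 250 bases before and 50 after the start. The windows of Grin1 and Grin3b are printed up to the start because these genes moved in opposite directions. The motifs searched on both strands were the GC box GGGCGG, the E box CACGTG, the core TGACG of the cAMP response element and the TATA motif TATAAA. All matches are in capitals, and the sequences run 5′ to 3′ on the strand of the gene, Grin1 on the minus strand at chr2:25319188-25319437 and Grin3b on the plus strand at chr10:79970474-79970723.
Grin1: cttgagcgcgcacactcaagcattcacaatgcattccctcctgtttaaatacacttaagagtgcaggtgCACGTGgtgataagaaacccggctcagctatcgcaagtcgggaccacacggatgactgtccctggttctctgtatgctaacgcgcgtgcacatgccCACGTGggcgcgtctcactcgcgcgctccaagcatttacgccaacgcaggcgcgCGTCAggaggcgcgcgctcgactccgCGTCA
Grin3b: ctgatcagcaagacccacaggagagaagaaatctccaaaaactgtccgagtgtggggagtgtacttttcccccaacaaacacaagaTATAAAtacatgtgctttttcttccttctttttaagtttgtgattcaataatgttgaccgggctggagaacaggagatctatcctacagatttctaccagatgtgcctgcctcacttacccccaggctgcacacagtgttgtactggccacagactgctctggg
The Grin1 window held 2 E boxes, 2 cores of the cAMP response element, 1 GC box that lies after the start and 33 CpG dinucleotides. The Grin3b window held 1 TATA motif, no match to the other motifs and 3 CpG. Grin2c had 3 GC boxes, of which a pair overlapped, and 22 CpG, and Grin2d had none of the 4 motifs and 12 CpG. The Grin2d window, at chr7:45866632-45866931, lies inside the GENCODE gene given above, so its RefSeq start is not the outermost annotated start. Over 32851 windows of the same length, 35.7% held a GC box, 7.15% an E box, 20.8% the response element core and 13.6% the TATA motif, and the median was 7 CpG. Fewer CpG than in Grin1 were found in 91.4% of windows, and fewer than in Grin3b in 23.3%. A match is only a run of letters and does not show a bound site.

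Beyond the subunits, 77 genes that act with NMDA receptors were described in 6 lists by role. Of the 75 tested, 29 (38.7%) were called lower and 14 (18.7%) higher at E18, against 22.5% and 20.8% of all genes tested, and their median log2 fold change was -0.20. The count called higher fell to 8 without E18 replicate 3 and to 9 without P5 replicate 6. Calls over all genes also fell in these fits, from 7135 to 4575 and 5589. The count called lower ranged from 22 without E18 replicate 3 to 35 without P5 replicate 8.

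Scaffolds of the postsynaptic density, which tie the receptors to their signalling enzymes, had 8 of 14 genes lower and 2 higher at E18 (median log2 fold change -0.35). Homer2 was at 22.6 ± 0.849 CPM at E18 and 72.1 ± 8.60 CPM at P5 (log2 fold change -1.67, edgeR adjusted p = 7.72e-05). Dlg2, which encodes PSD-93, was at 181 ± 22.5 and 483 ± 86.9 CPM (-1.41, edgeR adjusted p = 0.000362). Dlg4, which encodes PSD-95 and was named outside the rule after its value was seen, was at 154 ± 14 and 157 ± 12.7 CPM (-0.03, edgeR adjusted p = 0.827). The genes with the largest values in the other direction were Homer3, at 32.5 ± 1.52 and 20.5 ± 7.25 CPM, and Dlgap4, at 129 ± 0.821 and 92.9 ± 1.87 CPM.

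Genes of calcium signalling downstream of the channel had 6 of 12 lower and 2 higher at E18 (median -0.43). Camk4, a calmodulin-dependent kinase of the nucleus, was at 88.6 ± 2.62 and 387 ± 12.3 CPM (log2 fold change -2.13, edgeR adjusted p = 1.12e-05). Rasgrf1, a calcium-responsive activator of Ras, was at 0.759, 0.482 and 0.884 CPM at E18 and 8.38, 6.49 and 31.3 CPM at P5, so that replicate 9 stood far above the other P5 samples (log2 fold change -4.45, SE 0.630, edgeR adjusted p = 0.00111). Kalrn and Tiam1, guanine nucleotide exchange factors of dendritic spines, were higher at E18, at 354 ± 17.8 against 189 ± 25.1 CPM and at 128 ± 18.8 against 88.8 ± 11.3 CPM.

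Among kinases and phosphatases 7 of 19 were lower and 3 higher at E18 (median -0.16). Camk2a, whose kinase docks on GluN2B, was at 7.09 ± 1.23 and 13.6 ± 2.70 CPM (log2 fold change -0.94, edgeR adjusted p = 0.00508), and Prkca, which is also a bipolar cell marker, was at 42.3 ± 2.80 and 78.7 ± 13.7 CPM (-0.89, edgeR adjusted p = 0.00137). Dapk1, a death-associated kinase, was at 274 ± 41.5 and 185 ± 33.4 CPM (0.56), and Cdk5r1, the activator of Cdk5, was at 559 ± 20.4 and 398 ± 55.4 CPM (0.49). Both were called higher at E18.

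Among transport and trafficking genes 5 of 12 were lower and 1 higher at E18 (median -0.20). Kif17, a motor that carries GluN2B vesicles, was at 2.76 ± 0.332 and 6.08 ± 2.28 CPM (log2 fold change -1.14, edgeR adjusted p = 0.0111), and Lin7b, an adaptor of that cargo, was at 3.72 ± 0.440 and 7.49 ± 2.69 CPM (-1.01, edgeR adjusted p = 0.0135). Rph3a, rabphilin, was the gene higher at E18, at 191 ± 16.0 and 136 ± 4.51 CPM (0.49, edgeR adjusted p = 0.00347).

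Membrane partners had 3 of 7 lower and 2 higher at E18 (median -0.61). Dab1, the adaptor of reelin signalling, was at 6.81 ± 1.96 and 18.7 ± 1.38 CPM (log2 fold change -1.46), and Grm5, a metabotropic glutamate receptor, was at 31.6 ± 5.86 and 64.8 ± 14.6 CPM (-1.04). Ephb2, a receptor tyrosine kinase, was higher at E18 at 163 ± 4.78 against 97.2 ± 9.06 CPM (0.74), as was Reln, reelin itself (0.35).

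Genes for the supply and clearance of the co-agonists glycine and D-serine had none of 11 called lower and 4 called higher at E18 (median -0.11), and Slc6a5 and Slc38a5 had too few reads to be tested. Shmt1, which makes glycine from serine, was at 3.56 ± 0.687 and 1.68 ± 0.263 CPM (log2 fold change 1.08, edgeR adjusted p = 0.00604). Slc1a5, a transporter of neutral amino acids, was at 9.32 ± 1.501 and 4.79 ± 1.78 CPM (0.96, edgeR adjusted p = 0.0171). Srr, which makes D-serine, was at 38.3 ± 0.0898 and 43.2 ± 6.46 CPM (-0.17, edgeR adjusted p = 0.272), and it was named outside the rule after its value was seen.

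**Figure D5:**
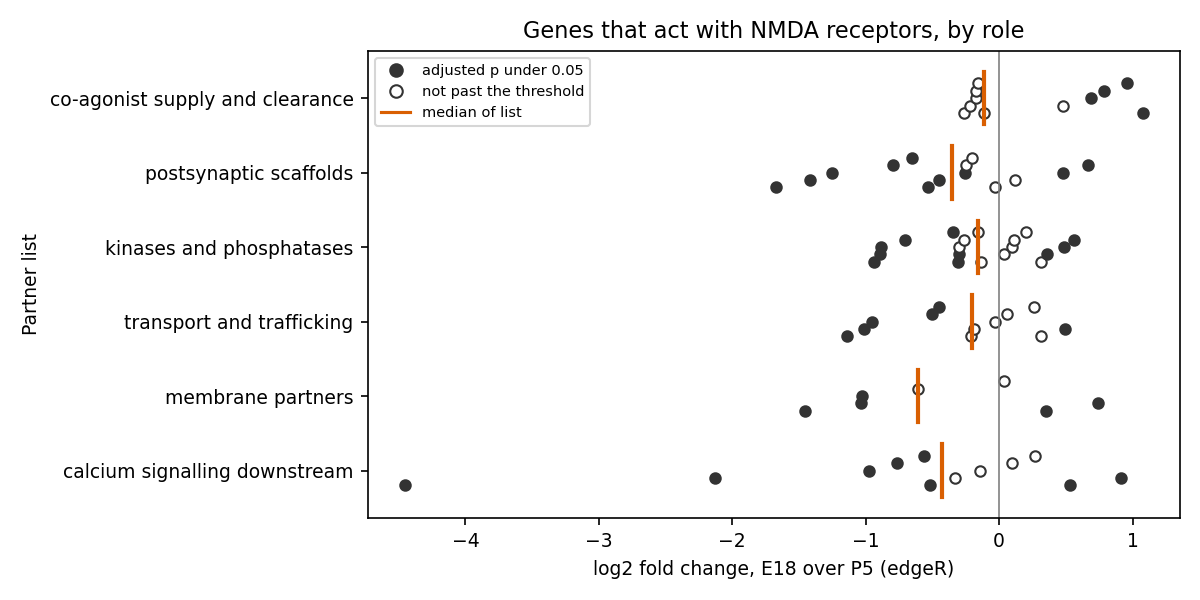
Log2 fold change of E18 over P5 from edgeR (horizontal axis) for the 75 tested genes that act with NMDA receptors, in 6 lists by role, with filled points for those past an adjusted p of 0.05, open points for the others and an orange line at the median of each list. Filled points lie on both sides of 0 in each list except co-agonist supply and clearance, where all 4 lie to the right, and the farthest on the left is Rasgrf1 at -4.45.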

How the data were processed

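RNA was measured in 6 samples, grouped by the age and replicate number in their labels. The authors used STAR for alignment to mm10 and HT-seq for counting on RefSeq genes, and the raw counts that they deposited were used here. Their normalized counts, deposited as a signal scaled for library size, and the log2 fold changes, p-values and rank score that the authors deposited from their own EdgeR comparison were not used. Neither the strand setting nor the handling of shared reads is stated.

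After TMM normalization and edgeR's expression filter, E18 was compared with P5 in edgeR 4.0.16 (R 4.3.3) by the quasi-likelihood test over 16449 genes, with Benjamini-Hochberg adjustment at 0.05. Tried on simulated data, the test recovered 122 of 200 changes of 2-fold (61%), with 10 false calls. Only these 200 of 16449 genes changed in the simulation, while 43.4% of genes were called in the data. The recovery in the data may therefore differ. Ratios and shares were compared by exact two-sided permutation over samples, which cannot give a p under 0.1 with 3 samples against 3. Lengths and coordinates are from GENCODE (mm10), with all 7 symbols matched, and promoters are from RefSeq, with 4 of 7 genes matched.

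The genes named are the 7 members, in each partner list up to 2 genes per direction with the largest change past the threshold and at least 1 CPM on average, and the 2 genes nearest in pattern to each member. Dlg4, Srr and the amacrine markers set beside Grin2c are said to be named or chosen after their values were seen. Other cell type markers and genes that share exons with a member are also named outside this rule. Some single genes and sequences are not reported here. Members and lists were chosen with earlier results of these data known. Alternatives were DESeq2 1.42.0, other edgeR tests, normalizations and filters, another pseudocount, other gene lengths and leaving out each sample.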

Additional observations from a re-analysis of the deposited data

How the results depend on the processing

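The 7 subunit genes kept their direction under every alternative run, and kept their calls under each alternative test, normalization and filter. With a sample left out, calls were lost for Grin2c alone, in 4 of 6 fits, and its log2 fold change ranged from -1.72 to -0.93. With a sample left out, the partner genes called higher at E18 ranged from 8 to 17 (14 with all samples). Those called lower ranged from 22 to 35 (29 with all samples). With a sample left out, the log2 difference in Grin2c to Grin1 ranged from -0.882 to 0.214 and was above 0 without E18 replicate 4. That in Grin3a to Grin1 ranged from -0.088 to 0.228 and was below 0 without E18 replicate 1 (-0.088) and without P5 replicate 8 (-0.026). The difference in the Grin2c share ranged from -6.15 to 1.42 points and was above 0 without E18 replicate 4. The cause was not tested. The calls over all genes ranged from 4575 without E18 replicate 3 to 8796 without P5 replicate 8. The shares with RefSeq-matched transcripts and coding bases were added after seeing the data. No paired analysis was possible because the ages share no replicate number. Depth is lowest for Grin3b, with 84 to 246 reads per sample, and Grin2c, with 67 to 492.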
